A study of Homo sapiens with 12 samples.

Results

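The empty-vector line SKR6-Vector was compared with its parent SKR6, gene by gene and across groups of genes. The comparison uses 6 of the 12 expression arrays of the series, 3 of SKR6-Vector and 3 of SKR6, and its arrays were taken by their line labels. SKR6 is a population of SKBR-3, a human breast cancer cell line with amplified HER2 (ERBB2), sorted by flow cytometry for elevated HER2. SKR6-Vector was made from SKR6 by infection with the empty retroviral vector pQCXIP and selection in puromycin. SKR6CA, also infected and puromycin-selected, carries a constitutively active p65 (RELA) subunit of NF-kB, and its 3 arrays are given beside the comparison as a second transduced line. SKR6LR, another line, grown in rising lapatinib, is not compared here, but its arrays entered the normalisation, the choice of probe set and the estimate of replicate spread. RNA was taken from all lines after 48 hours of culture in RPMI medium with serum.

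A retroviral vector of this kind integrates into the host genome and expresses a puromycin resistance gene, and an empty vector carries no further coding insert. Puromycin blocks protein synthesis and kills cells that lack the resistance gene. The labels do not say whether SKR6-Vector was derived more than once, and it was treated as 1 derived line whose arrays are repeat cultures. Effects of infection, of puromycin, of the cells that happened to survive it and of separate passage cannot be told apart in this comparison. The labels call the replicates biological and do not say how they were separated, so p-values measure the spread among these cultures.

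The values are deposited log2 expression values from 3' arrays, normalised across all 12 arrays with RMA (robust multi-array averaging, which equalises array distributions). Each of 19775 genes was read from 1 probe set, the brightest on average among those annotated to that gene alone. Array medians lay between 5.74 and 5.77. Pearson correlations across genes were 0.988 to 0.989 between an SKR6 and an SKR6-Vector array. Of 13 markers of a luminal HER2-amplified breast line 3 were called higher (23.1%) and 2 lower (15.4%). Among genes above the median level, as are 11 of the 13, 19.2% were higher and 23.0% lower. The rises were ELF3 (0.73), MLPH (0.36) and KRT18 (0.30), and the falls TFAP2B (-1.40) and SPDEF (-0.40). KRT18 read 14.33 to 14.39 in SKR6 and 14.65 to 14.67 in SKR6-Vector, EPCAM 13.45 to 13.50 and 13.63 to 13.68, and ERBB2 13.80 to 13.85 and 13.92 to 13.93. CDH1, the epithelial cadherin, read 4.14 to 4.41 on the 6 arrays, below the array medians. None of the 7 fibroblast, 5 leukocyte, 2 erythroid or 3 adipocyte markers measured was called in limma, and at an unadjusted p under 0.05 only 1, an erythroid marker, was higher. The mean over the fibroblast markers was 5.35 to 5.40 in SKR6 and 5.32 to 5.44 in SKR6-Vector, and that over the leukocyte markers 4.95 to 5.16 and 5.02 to 5.08.

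Many genes differed between the vector line and its parent. A gene was called at a Benjamini-Hochberg adjusted p under 0.05 in limma, with the spread of each gene pooled over the 4 lines. By this rule 2418 genes were higher in SKR6-Vector (12.2% of all genes) and 2655 were lower (13.4%), 5073 in all (25.7%). Most differences were small. A called rise of at least 1 was seen for 377 genes (1.91%) and a called fall of at least 1 for 150 (0.759%), while the median over all genes was -0.02. For 9532 genes (48.2%) the 3 arrays of SKR6-Vector did not overlap the 3 of SKR6. These shares are the background for the gene groups below. Genes of higher level were called more often. Of the 9875 genes above the median level with a place in RefSeq, 19.2% were higher and 23.0% lower. Many groups made mostly of such genes are given beside the shares of 19.2% and 23.0%. For the other such groups these are the closer background too.

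**Figure D1:**
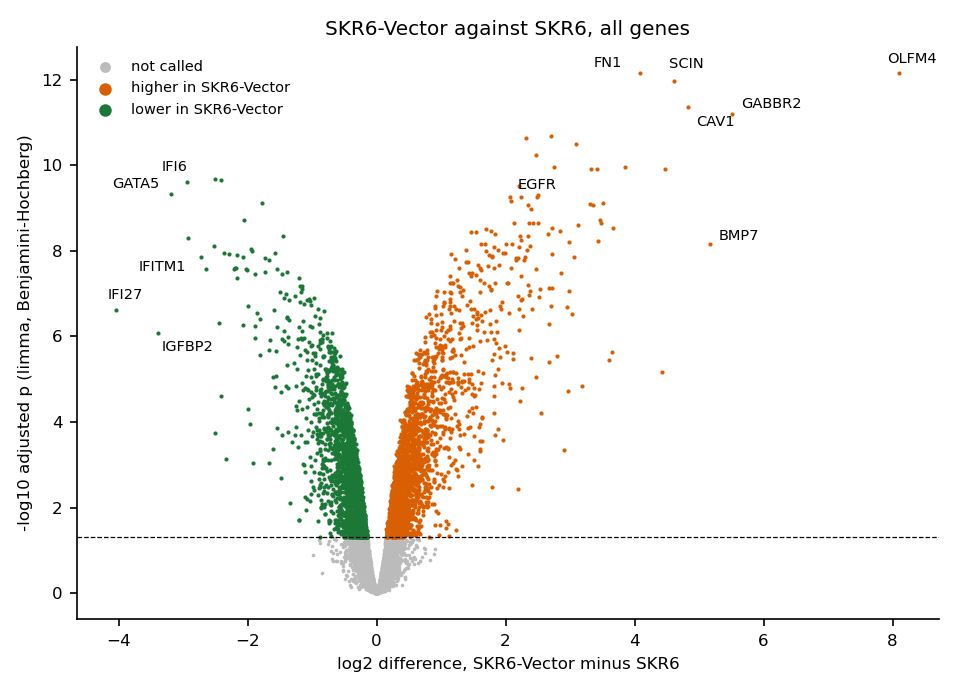
Each point is 1 of the genes tested, with the log2 difference SKR6-Vector minus SKR6 on the x axis and -log10 of the limma adjusted p on the y axis; the dashed line marks an adjusted p of 0.05. Called rises (orange) reach 8.11 for OLFM4 while called falls (green) reach -4.03 for IFI27, so the right arm extends further than the left.

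The gene that rose most was OLFM4, olfactomedin 4, a secreted glycoprotein of mucosal epithelium. The SKR6 arrays read 4.29, 4.49 and 4.50 and the SKR6-Vector arrays 12.44, 12.55 and 12.62, a difference of 8.11 ± 0.12 (SE, n = 3 and 3, limma adjusted p = 6.9e-13). The groups were far apart, and SKR6CA had a mean of only 6.18. GABBR2, a subunit of the metabotropic GABA-B receptor, went from 6.46, 6.53 and 6.51 to 12.03, 11.98 and 12.03 (5.52, or 45.8-fold), with 7.75 in SKR6CA. SCIN, the actin-severing protein scinderin, went from 8.16, 8.23 and 8.16 to 12.81, 12.77 and 12.78 (4.61, 24.3-fold). In SKR6CA its mean was 7.39, so this gene was high in 1 of the 2 transduced lines. BMP7, a secreted ligand of the BMP pathway, read 5.72, 5.24 and 5.26 in SKR6 and 10.62, 10.60 and 10.53 in SKR6-Vector (5.18). The SKR6 levels of OLFM4 and BMP7 lie below the array medians, where values are compressed and no detection call exists, so no fold is given. BMP7 was also high in SKR6CA, at a mean of 9.51.

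The rest of the 15 largest rises ranged from 3.46 to 4.83. CAV1, which coats the membrane pits called caveolae, rose by 4.83 and its partner CAV2 by 3.46. FN1, the matrix glycoprotein fibronectin, read 9.36, 9.32 and 9.29 in SKR6 and 13.43, 13.33 and 13.45 in SKR6-Vector, a rise of 4.08. IGFBP3, which binds insulin-like growth factors outside the cell, rose by 3.86, and GPC6, a membrane-anchored heparan sulphate proteoglycan, by 3.67. TFPI2, a secreted protease inhibitor, rose by 3.66, NT5E, the surface enzyme that makes adenosine from AMP, by 3.60, and PTGER3, a prostaglandin E2 receptor, by 3.51. VAT1L rose by 3.48. CDKN2B, an inhibitor of cyclin D kinases, rose by 4.47 on its brightest probe set and by 0.59 on the other. FBN2, a microfibril protein, rose by 4.42 on its brightest probe set, while the others gave 0.16 and 0.22, so its rise rests on a single probe set.

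The largest falls were smaller than the largest rises and 5 of the 15 were interferon-stimulated genes, described below. IGFBP2, another carrier of insulin-like growth factors, read 9.08, 9.17 and 9.29 in SKR6 and 5.70, 5.70 and 5.96 in SKR6-Vector (-3.39, adjusted p = 8.2e-07). GATA5, a zinc-finger transcription factor, fell by 3.19, from a mean of 7.93 (SD 0.10, n = 3) to 4.74 (SD 0.17, n = 3). CD109, a surface protein that binds TGF-beta, fell by 2.71. Both were also low in SKR6CA, at means of 4.75 and 4.98, and did not differ between the transduced lines (0.01 for GATA5 and -0.02 for CD109, adjusted p above 0.05). SLC1A1, a glutamate transporter, fell by 2.93 on its brightest probe set and read -0.23 on the other. Products of secretory breast epithelium were among the falls: AZGP1, the secreted zinc-binding glycoprotein, differed by -2.50 and MUCL1, a small breast mucin, by -2.44. TBATA (-2.52), the retinol-metabolising enzyme SDR16C5 (-2.41), NCR3LG1, a ligand of an activating natural killer receptor (-2.41), and CSRP2, a LIM-domain protein (-2.36), complete the 15.

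**Figure D2:**
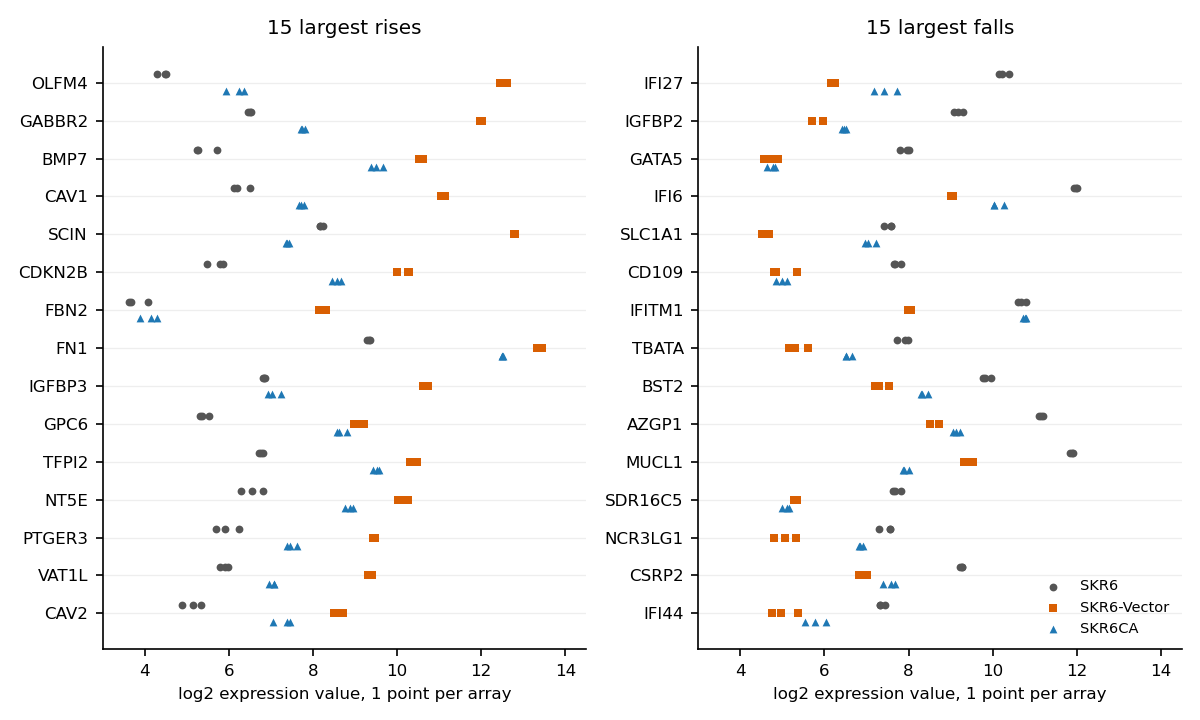
Log2 expression values of the 15 genes with the largest rises (left) and falls (right), 1 point per array, for SKR6 (grey circles), SKR6-Vector (orange squares) and SKR6CA (blue triangles). For these genes the SKR6-Vector arrays never overlap the SKR6 arrays, and SKR6CA lies close to SKR6 for some genes (IFITM1, FBN2) and close to SKR6-Vector for others (GATA5, CD109, BMP7).

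Interferon-stimulated genes encode antiviral effectors. Interferon receptors signal through JAK kinases to a STAT and IRF9 complex, which binds a DNA element of repeated GAAA cores in their promoters. Of 46 such effector genes measured, 14 fell (30.4%) and 3 rose (6.52%), and their median difference was -0.22. Of the 46, 31 lie above the median level, where 23.0% of genes were lower and 19.2% higher. In 29 of the 46 the arrays did not overlap, against 48.2% of all genes, a share not taken for genes above the median level alone. The mean over the list was 7.25 to 7.42 on the SKR6 arrays and 6.76 to 6.83 on the SKR6-Vector arrays. The promoter stretches of 4 of the genes that fell are printed here because each holds at least 1 copy of the element core GAAANNGAA, in capitals, read on either strand (a match on the opposite strand appears as the reverse complement). They are RefSeq sequences of GRCh38.p14, written 5′ to 3′ on the gene's own strand and ending before its annotated start: chr14:94110601-94110700 (+) for IFI27, chr1:27672226-27672325 (-) for IFI6, chr11:313940-314039 (+) for IFITM1 and chr1:1013356-1013455 (+) for ISG15.
IFI27: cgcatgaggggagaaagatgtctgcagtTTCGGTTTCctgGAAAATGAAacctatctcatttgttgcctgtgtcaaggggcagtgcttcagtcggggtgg
IFI6: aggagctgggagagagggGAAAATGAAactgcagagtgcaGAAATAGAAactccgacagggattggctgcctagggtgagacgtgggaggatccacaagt
IFITM1: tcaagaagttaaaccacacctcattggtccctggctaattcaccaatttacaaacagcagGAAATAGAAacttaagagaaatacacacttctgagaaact
ISG15: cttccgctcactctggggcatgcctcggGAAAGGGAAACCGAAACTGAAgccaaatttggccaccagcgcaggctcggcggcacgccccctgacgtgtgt

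The core was searched in the 250 bases before the start, where copies may overlap one another. It was present for 5.78% of the 15382 tested genes that have an entry in the promoter table, for 11 of the 12 fallen interferon-stimulated genes with an entry (91.7%) and for 13 of the 24 that were not called (54.2%). The gene among the 12 without it was OAS1. A match describes the letters only, and the list was built from genes known to respond to interferon.

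The effectors that fell most were membrane and cytoplasmic antiviral proteins. IFI27, a mitochondrial membrane protein, read 10.15, 10.22 and 10.38 in SKR6 and 6.24, 6.15 and 6.26 in SKR6-Vector (-4.03 ± 0.26, adjusted p = 2.4e-07). IFI6, of the same protein family, had a mean of 11.97 (SD 0.03, n = 3) and then 9.02 (SD 0.03, n = 3), a difference of -2.94. IFITM1, which blocks entry of viruses through membranes, read 10.60, 10.68 and 10.78 and then 8.05, 8.06 and 7.99 (-2.65). In all 3 the lines were separated on every array. BST2, the tether that holds budding virus on the cell surface, fell by 2.51, from 9.77, 9.83 and 9.96 to 7.20, 7.30 and 7.53. IFI44 fell by 2.33 on its brightest probe set, with -0.39 on the other, and OAS1, which senses double-stranded RNA and activates RNase L, fell by 1.96. The other falls, named here after their values were seen, were OAS3 (-1.25), the ISG15 protease USP18 (-1.11), the ubiquitin-like ISG15 (-1.11), IFIT1 (-0.88), the helicase DDX60 (-0.85), LGALS3BP (-0.64), IFITM3 (-0.60) and IFITM2 (-0.53).

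The transduced lines differed from each other for some of these genes. IFITM1 was at a mean of 10.75 in SKR6CA, against 10.69 in SKR6, and was 2.72 above SKR6-Vector (adjusted p = 3e-08), and OAS1 was 2.19 above it (adjusted p = 4e-05). IFI27 and IFI6 had means of 7.45 and 10.10 in SKR6CA, between the other 2 lines, and were 1.23 and 1.08 above SKR6-Vector. USP18 was at 8.51 in SKR6CA and 8.48 in SKR6-Vector, both below the 9.59 of SKR6. The 3 effectors that rose were TRIM22 (0.91), an antiviral ubiquitin ligase, with ZNFX1 (0.76) and DTX3L (0.53), the last a pair named after their values were seen. The remaining 29 members were not called.

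**Figure D3:**
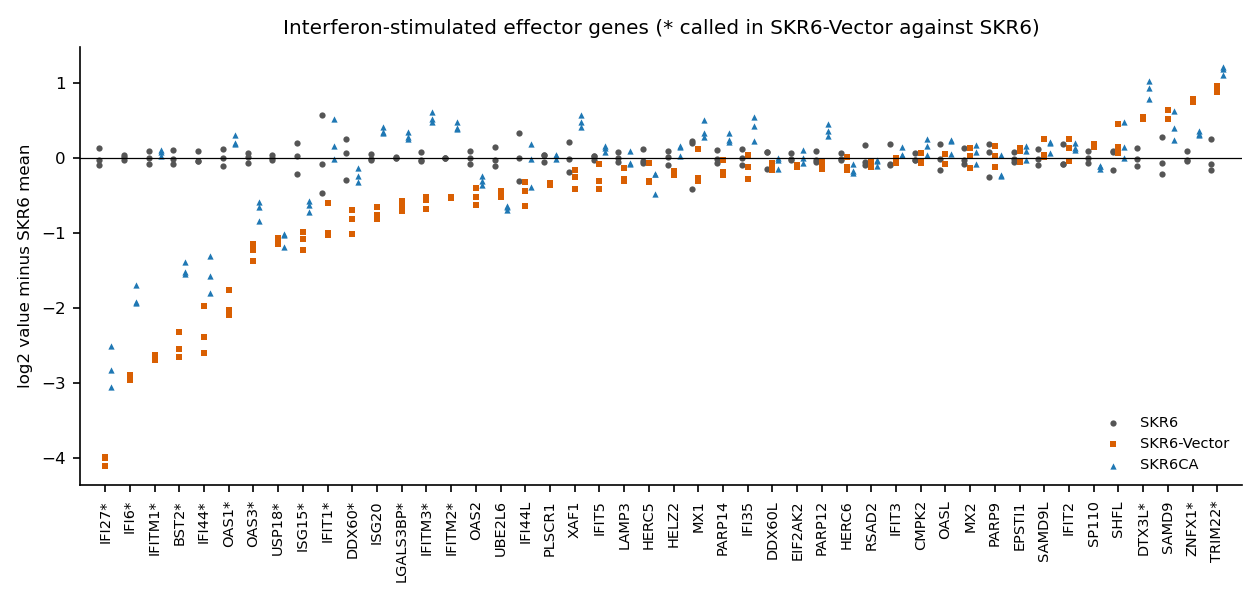
Log2 value minus the SKR6 mean for each of the 46 interferon-stimulated effector genes, 1 point per array, for SKR6 (grey), SKR6-Vector (orange) and SKR6CA (blue); an asterisk marks a gene called between SKR6-Vector and SKR6. The first 6 genes from the left lie between -4.03 and -1.96 in SKR6-Vector, most genes in the middle stay near 0, and IFITM1 and OAS1 in SKR6CA stay near the SKR6 level.

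Upstream of these effectors the changes were of both signs. Of 31 interferon sensors, receptors and transcription factors, 4 rose and 4 fell (12.9% each), close to the shares of 12.2% and 13.4% over all genes, with a median of -0.03. Of the 31, 17 lie above the median level, where 19.2% of genes were higher and 23.0% lower. Leaving out any 1 of the 6 arrays gave 2 to 3 rises and 1 to 3 falls. IRF7, a master regulator of interferon production, fell by 0.71, from 7.84, 7.77 and 7.88 to 7.21, 7.11 and 7.05. IRF9, the DNA-binding part of the STAT complex, fell by 0.59 and the receptor chain IFNAR2 by 0.30. IRF1, a factor shared with NF-kB signalling, rose by 0.89, from 7.25, 7.30 and 7.30 to 8.23, 8.19 and 8.11, and the kinase JAK1 rose by 0.55 and IRF2 by 0.37. IRF7, IRF9 and IFNAR2 were higher in SKR6CA than in SKR6-Vector, by 1.00, 1.47 and 0.57.

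Genes that restrict retroviruses or silence their DNA were read as a separate list, since the line was made by retroviral infection. Of 21 measured, 3 rose and 3 fell (14.3% each), against 12.2% and 13.4% of all genes. Above the median level, where 15 of the 21 lie, 19.2% of genes were higher and 23.0% lower. Leaving out any 1 of the 6 arrays gave 0 to 1 rises and 2 falls. The calls of TASOR and SAMHD1 were lost whichever array was left out, that of TRIM22 for 5 of the 6 and that of SETDB1 for 3. Besides BST2 and TRIM22, SLFN11, which restricts viral protein synthesis and sensitises cells to DNA damage, fell by 1.99, from 8.26, 8.42 and 8.32 to 6.29, 6.50 and 6.24. SAMHD1, which removes the nucleotides needed for reverse transcription, fell by 0.62. The histone methyltransferase SETDB1, which silences integrated retroviral DNA, rose by 0.26 on its brightest probe set and read -0.21 on the other. TASOR, of the HUSH silencing complex, rose by 0.21 and its other probe sets read 0.21 and -0.07.

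Cells show peptides cut by proteasomes on MHC class I molecules. Of 17 genes of MHC class I loading and the immunoproteasome, 5 rose (29.4%) and none fell in limma, with a median of 0.23, and 0 were lower at an unadjusted p under 0.05. Of the 17, 14 lie above the median level, where 19.2% of genes were higher. Without SKR6 replicate 1, SKR6-Vector replicate 1 or SKR6-Vector replicate 3, 3 rose. PSMB9, a catalytic subunit of the immunoproteasome, read 6.57, 6.55 and 6.66 in SKR6 and 7.74, 7.69 and 7.73 in SKR6-Vector (1.13, adjusted p = 6.6e-04). TAPBP rose by 0.50, the trimming peptidase ERAP1 by 0.48, the peptide transporter TAP1 by 0.46 and the proteasome activator PSME1 by 0.28. PSMB9 was 0.77 higher again in SKR6CA. Of 13 MHC class II genes only HLA-DMA was called, with a rise of 0.80; in limma 0 were lower at an unadjusted p under 0.05. The class II regulator CIITA read 5.03 to 5.20 in SKR6 and 4.95 to 5.27 in SKR6-Vector.

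Breast epithelium has an inner luminal layer, which makes secretions, and an outer basal layer of contractile myoepithelial cells. Of 22 basal and myoepithelial genes 11 rose (50.0%) and none fell in limma, with 0 lower at an unadjusted p under 0.05, and the median difference was 0.45. Its mean was 6.13 to 6.16 on the SKR6 arrays and 7.10 to 7.14 on the SKR6-Vector arrays. CAV1 read 6.50, 6.13 and 6.20 in SKR6 and 11.12, 11.04 and 11.15 in SKR6-Vector, and CAV2 4.88, 5.16 and 5.34 and then 8.58, 8.49 and 8.71. Contractile genes rose too. OXTR, the oxytocin receptor, rose by 2.41, MYLK, the kinase of the myosin light chain, by 2.22, and ACTA2, smooth muscle actin, by 2.16. The other probe sets of ACTA2 read 0.11 and -0.03 and those of MYLK 0.02 to 0.99. KRT15, a keratin of progenitor cells, rose by 1.68. The keratins that define the basal layer were not called: KRT5 read 5.26 to 5.77 and 5.42 to 5.80, KRT14 4.57 to 4.59 and 4.34 to 4.52, and the contractile marker CNN1 4.35 to 4.62 and 4.53 to 4.58. The mean over the 6 defining basal markers was 5.27 to 5.36 in SKR6, 6.43 to 6.48 in SKR6-Vector and 5.37 to 5.46 in SKR6CA. The differences SKR6CA minus SKR6-Vector were -2.71 for OXTR, -2.35 for MYLK and -2.34 for KRT15.

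Luminal genes moved in both directions. Of 31 measured, 8 rose (25.8%) and 7 fell (22.6%), with a median of -0.01. Of the 31, 25 lie above the median level, where 19.2% of genes were higher and 23.0% lower. Among the transcription factors, GATA3, which specifies luminal cells, rose from 10.91, 10.93 and 10.85 to 12.68, 12.68 and 12.66 (1.77, adjusted p = 8.2e-08). ELF5, which specifies the alveolar secretory lineage, rose from 7.88, 8.03 and 8.02 to 9.69, 9.66 and 9.62 (1.68), and differed by -2.63 in SKR6CA from SKR6-Vector. TFAP2B, an AP-2 factor, fell by 1.40. Among secreted luminal products, besides AZGP1, the mammaglobin SCGB2A2 fell (-1.66), as did the trefoil peptide TFF1 (-1.21). FOXA1, which opens chromatin for steroid receptors, read 10.23 to 10.32 and 10.16 to 10.26 and was not called.

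Secretory and mucosal defence genes were mixed, with 5 of 27 higher (18.5%) and 3 lower (11.1%). CEACAM6, an adhesion molecule of mucosal cells, rose from 9.89, 9.90 and 9.96 to 12.37, 12.45 and 12.42 (2.50) and lay 2.33 lower in SKR6CA. LCN2, a siderophore-binding antibacterial protein, rose by 2.19, and S100A9, a subunit of calprotectin, by 0.63. SLPI, an inhibitor of neutrophil elastase, fell by 1.49, from 12.27, 12.24 and 12.28 to 10.75, 10.82 and 10.75, and the cell-surface mucin MUC16 fell by 1.16. Their means in SKR6CA were 12.18 and 7.42, against 12.26 and 7.51 in SKR6. Among 18 S100 genes 4 rose (22.2%) and 2 fell (11.1%). Of the 18, 11 lie above the median level, where 19.2% of genes were higher and 23.0% lower. S100A10, an annexin partner, rose by 0.93 and S100A13 fell by 0.60.

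The extracellular matrix is the protein mesh that cells secrete around themselves. Of 41 matrix genes measured, 18 rose (43.9%) and 2 fell (4.88%), with a median of 0.16. FBN1, the main microfibril protein, rose from 5.20, 5.52 and 5.47 to 8.38, 8.34 and 8.43 (2.99), and all of its probe sets gave a positive difference. Among collagens, COL5A2 rose by 2.33 and COL4A5 by 2.19, the latter with 0.02 on its other probe set. COL12A1 rose by 1.83, from 8.57, 8.50 and 8.33 to 10.39, 10.21 and 10.31, and MGP, a calcification inhibitor of the matrix, by 1.82. COL12A1 had a mean of 10.14 in SKR6CA while COL5A2 was at 8.09 there (-2.47 against SKR6-Vector). The members that fell, named after their values were seen, were EFEMP1 (-1.73) and FBLN5 (-1.07), both of the fibulin family. Neither was low in SKR6CA, where their means were 11.95 and 9.76.

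Fibronectin is also a marker of epithelial-mesenchymal transition, the programme by which epithelial cells become motile. Of 14 genes of that list only FN1 was called (7.14%), with 1 lower in limma at an unadjusted p under 0.05. ZEB1 read 5.33 to 5.53 in SKR6 and 5.22 to 5.34 in SKR6-Vector, ZEB2 3.73 to 3.98 and 3.83 to 3.86, SNAI2 4.10 to 4.24 and 4.27 to 4.44, and TWIST1 3.73 to 3.80 and 3.61 to 3.75. The intermediate filament gene VIM read 6.09, 5.64 and 5.62 and then 5.49, 5.57 and 5.48 (adjusted p = 0.18). Differences this small near the lower end of the array scale are compressed by RMA. Of 17 integrin genes, which encode receptors for the matrix, 5 rose (29.4%) and ITGA9 fell, by 1.10. ITGAV rose by 0.57 and ITGB1 by 0.47. ITGB4 rose by 0.92 on its brightest probe set, but its other probe sets read -0.10 to 0.09, and ITGB5 rose by 0.19 with -0.12 to 0.08 on the others.

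The TGF-beta family signals through receptors to SMAD proteins, and BMP ligands induce ID genes. Of 30 genes measured 16 rose (53.3%) and 3 fell (10.0%), with a median of 0.25. Of the 30, 20 lie above the median level, where 19.2% of genes were higher. Leaving out any 1 of the 6 arrays gave 13 to 16 rises. Among ligands, besides BMP7, TGFB2 rose from 6.33, 6.29 and 6.30 to 8.39, 8.24 and 8.37 (2.03). The signal transducer SMAD3 rose from 7.73, 7.81 and 7.87 to 9.54, 9.40 and 9.56 (1.70). Inhibitors rose as well, with BAMBI, a decoy receptor, up by 1.43 and SKIL, a SMAD corepressor, by 1.02. ID4 rose by 1.06, and its other probe sets ranged from -0.03 to 0.93. TGFB2 did not differ between SKR6CA and SKR6-Vector at an adjusted p under 0.05 (-0.26), whereas BAMBI, ID4 and SKIL were lower in SKR6CA by 1.08, 0.88 and 0.58. In the Notch and Wnt list 8 of 33 rose (24.2%) and 5 fell (15.2%). The Wnt receptors FZD6 and FZD2 rose by 1.82 and 1.10, the secreted Wnt inhibitor DKK1 by 1.43 and the receptor NOTCH3 by 0.75. The other probe sets of FZD2 and NOTCH3 read 0.10 and 0.02. The Notch targets NRARP and HEY1 fell by 0.71 and 0.41.

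In a line sorted for HER2, the level of ERBB2 itself was 13.80, 13.85 and 13.84 in SKR6 and 13.92, 13.93 and 13.92 in SKR6-Vector, a difference of 0.09 ± 0.06 that was not called (adjusted p = 0.30). Its dimmer probe sets differed in sign, at -0.30 and 0.28. ERBB3, its kinase-inactive partner, differed by 0.18 (adjusted p = 0.10). EGFR, the receptor of EGF and several related ligands, read 8.50, 8.56 and 8.66 in SKR6 and 10.55, 10.64 and 10.72 in SKR6-Vector, a 4.18-fold rise (2.06 ± 0.06, adjusted p = 5.5e-10). Its other probe sets ranged from -0.12 to 1.96, and SKR6CA had a mean of 11.10. Among the ligands, BTC rose from 5.05, 5.07 and 5.14 to 6.59, 6.45 and 6.68 (1.49), while HBEGF fell by 0.42 and EGF by 0.37. Thus 2 of 13 members of the family rose and 2 fell (15.4% each). Of 15 genes on 17q12, ERBB2 itself included, none rose in limma (1 at an unadjusted p under 0.05) and 4 fell (26.7%). Above the median level, where 11 of the 15 lie, 23.0% of genes were lower. Without SKR6 replicate 3 or SKR6-Vector replicate 1, 2 fell. The falls were those of PPP1R1B (-1.12), TCAP (-0.44), STARD3 (-0.30) and MIEN1 (-0.25).

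Among 31 other receptor tyrosine kinases 3 rose (9.68%) and 4 fell (12.9%). Members of the FGF receptor family went in opposite directions: FGFR2 rose by 1.18, while FGFR3 fell by 1.67, from 8.72, 8.72 and 8.72 to 6.92, 7.20 and 7.03, and FGFR4 fell by 1.35. The other probe set of FGFR3 read -0.01, those of FGFR2 ranged from -0.20 to 1.60 and those of FGFR4 from -0.30 to 0.14. The ephrin receptor EPHA4 rose by 1.60 and IGF1R by 0.85, and MET, the receptor of hepatocyte growth factor, fell (-1.12), from 10.93, 10.97 and 10.95 to 9.83, 9.82 and 9.83. Of 22 genes induced within minutes by growth factor signalling 10 rose (45.5%) and 2 fell (9.09%). Of the 22, 17 lie above the median level, where 19.2% of genes were higher and 23.0% lower. Leaving out any 1 of the 6 arrays gave 7 to 8 rises and 1 to 2 falls. FOSB read 6.62, 6.16 and 5.94 in SKR6 and 7.97, 7.18 and 7.84 in SKR6-Vector (1.42). FOS read 10.18, 9.27 and 9.25 and then 11.08, 10.50 and 10.86 (1.25); its first SKR6 array stood closest to the vector arrays. ATF3 rose by 1.36, PHLDA1 by 1.24 and KLF4 by 0.75, and MAFF fell by 0.69. Of 16 feedback inhibitors of this signalling 3 rose (18.8%) and 2 fell (12.5%). Above the median level, where 13 of the 16 lie, 19.2% of genes were higher and 23.0% lower. DUSP1 rose by 0.81, SPRED1 by 0.69 and SPRY2 by 0.53, and LRIG1 fell by 0.68 and SPRY4 by 0.37. The other probe sets of DUSP1 read 0.09 and 0.05 and those of LRIG1 -0.09 to 0.10.

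Genes of cell division were lower in SKR6-Vector. Of 32 genes of the G1/S transition and DNA replication, 16 fell (50.0%) and none rose, with a median of -0.44. Of 32 genes of G2/M and mitosis, 20 fell (62.5%) and none rose, with a median of -0.42. At an unadjusted p under 0.05 in limma, 22 and 25 were lower and 0 higher. Of the 64 members 63 lie above the median level, where 23.0% of genes were lower. Leaving out any 1 of the 6 arrays gave 13 to 14 falls in the first list and 12 to 15 in the second. The arrays of the 2 lines did not overlap for 29 genes of the first list and 32 of the second, against 48.2% of all genes. The share without overlap among genes above the median level, the closer background, was not taken. E2F2, which drives S-phase genes, fell from 9.63, 9.65 and 9.45 to 8.58, 8.62 and 8.62 (-0.97). ORC1, of the origin recognition complex, fell by 0.93 and the helicase subunit MCM2 by 0.82, from 10.49, 10.47 and 10.58 to 9.66, 9.75 and 9.68. CLSPN fell by 0.81, MCM10 by 0.67 and MCM7 by 0.58. Among mitotic genes, the checkpoint kinase BUB1 fell by 0.75, the kinetochore protein NDC80 by 0.72 and the activator of the anaphase complex CDC20 by 0.68. MKI67, the proliferation marker, read 10.99, 10.91 and 11.05 in SKR6 and 10.31, 10.26 and 10.30 in SKR6-Vector (-0.70). PLK1 fell by 0.63 and CENPE by 0.61. SKR6CA had list medians of -0.40 and -0.42 against SKR6, and it shares the SKR6 arrays with this comparison.

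CDK inhibitors hold the cycle back. Of 19 genes for CDK inhibitors and quiescence, 6 rose (31.6%) and 2 fell (10.5%). Of the 19, 15 lie above the median level, where 19.2% of genes were higher and 23.0% lower. CDKN2B read 5.78, 5.86 and 5.49 in SKR6 and 10.28, 9.99 and 10.27 in SKR6-Vector, and its neighbour CDKN2A rose from 8.58, 8.56 and 8.62 to 9.80, 9.73 and 9.88 (1.22). CDKN1A, the p21 inhibitor, rose by 1.18, from 7.93, 7.83 and 7.99 to 9.22, 9.04 and 9.02, and its mean in SKR6CA was 8.96. The factors FOXO1 and FOXO3 rose by 1.06 and 0.73 and the cyclin CCNG2 by 0.98. Of 17 p53 targets 6 rose (35.3%) and 3 fell (17.6%). Above the median level, where 16 of the 17 lie, 19.2% of genes were higher and 23.0% lower. TP53INP1 rose by 1.96 on its brightest probe set, with 0.13 and -0.05 on the others. ZMAT3, an RNA-binding protein, rose by 1.16 and by 0.87 to 1.36 on its other probe sets, while the death receptor TNFRSF10B fell by 1.08 and PLK3 by 0.56. GDF15, a stress cytokine, rose by 2.91 on its brightest probe set, but the others read -0.07 and 0.07.

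Puromycin acts on the ribosome, so genes of translation and stress are given together. None of 24 ribosomal and translation factor genes rose in limma (0 at an unadjusted p under 0.05) and 8 fell (33.3%), with a median of -0.08. Of the 24, 23 lie above the median level, where 23.0% were lower, and leaving out any 1 of the 6 arrays gave 3 to 5 falls. EEF1A2, an elongation factor isoform, fell from 9.91, 9.97 and 10.01 to 8.61, 8.49 and 8.62 (-1.39) and stood at 8.58 in SKR6CA. RPL22L1 fell by 0.56, RPS27L by 0.42, EIF4E and RPL11 by 0.23 each and NCL by 0.22. Of 31 genes of amino-acid and unfolded-protein stress, 6 rose (19.4%) and 5 fell (16.1%). Above the median level, where 30 of the 31 lie, 19.2% of genes were higher and 23.0% lower. DDIT4, an inhibitor of mTORC1, read 11.56, 11.56 and 11.62 in SKR6 and 13.55, 13.51 and 13.55 in SKR6-Vector (1.96), with 13.14 in SKR6CA. VLDLR and DNAJB9 rose by 0.93 and 0.74, and PHGDH and CRELD2 fell by 0.58 and 0.46. ABC transporters, some of which export drugs, had 8 rises among 24 (33.3%) and 3 falls (12.5%). Of these 24, 16 lie above the median level, where 19.2% of genes were higher and 23.0% lower. ABCC3 rose from 6.71, 6.80 and 6.75 to 9.62, 9.57 and 9.65 (2.86) and ABCC4 from 6.22, 5.87 and 6.38 to 8.42, 8.36 and 8.54 (2.28). Their means in SKR6CA were 6.46 and 6.49. ABCC2 and ABCC11 fell by 1.01 and 0.97, the latter with -0.10 on its other probe set.

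The respiratory chain passes electrons to oxygen and drives ATP synthesis. Of 28 subunit genes 16 fell (57.1%) and none rose in limma (0 at an unadjusted p under 0.05), with a median of -0.19 and so by small steps. All 28 lie above the median level, where 23.0% of genes were lower, and leaving out any 1 of the 6 arrays gave 12 to 13 falls. NDUFA9, of complex I, fell by 0.53, SDHA, of complex II, by 0.50, CYC1, of complex III, by 0.43, COX5B, of complex IV, by 0.49 and ATP5MC1, of ATP synthase, by 0.48. COX5B read 13.25, 13.29 and 13.31 in SKR6, 12.82, 12.78 and 12.77 in SKR6-Vector and a mean of 13.28 in SKR6CA. NDUFV2 fell by 0.42. Among 31 genes of glycolysis and hypoxia 4 rose (12.9%) and 9 fell (29.0%), against 19.2% and 23.0% of genes above the median level, where 29 of the 31 lie. PFKFB3, which makes an activator of phosphofructokinase, rose from 8.60, 8.74 and 8.78 to 10.82, 10.72 and 10.91 (2.11), while the enzymes PFKP and TPI1 fell by 0.47 and 0.39, and the hypoxia genes BNIP3, EGLN3 and ANKRD37 fell by 0.62, 0.55 and 0.51.

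Genes of lipid synthesis are driven by the SREBP factors. Of 17 fatty acid genes 6 rose (35.3%) and 1 fell (5.88%), and of 17 cholesterol genes 6 rose (35.3%) and 3 fell (17.6%). In these lists 14 and 16 genes lie above the median level, where 19.2% of genes were higher and 23.0% lower. SCD, the desaturase of saturated fatty acids, read 11.02, 11.12 and 11.05 in SKR6 and 11.98, 11.87 and 11.89 in SKR6-Vector (0.85). FASN, fatty acid synthase, rose by 0.61, ELOVL7 by 0.99, THRSP by 0.85 and the transcription factor SREBF1 by 0.43, while GPAM fell by 0.41. The other probe sets of FASN and SREBF1 read 0.12 and 0.02. In the sterol branch, STARD4 rose by 1.23, INSIG1 by 1.17, MSMO1 by 0.76 and SQLE by 0.71, and PMVK fell by 0.51. SC5D rose by 0.92, with -0.07 on its other probe set. SCD, FASN and INSIG1 were higher still in SKR6CA, by 1.00, 0.86 and 1.88.

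NRF2 is the factor that turns on glutathione and aldo-keto reductase genes. In its list 9 of 18 members fell (50.0%) while AKR1C3 rose (5.56%), by 0.77, and the median was -0.17. Of the 18, 14 lie above the median level, where 23.0% of genes were lower. Leaving out any 1 of the 6 arrays gave 6 to 7 falls. AKR1B10 read 8.80, 8.78 and 8.73 in SKR6 and 7.23, 7.32 and 7.33 in SKR6-Vector (-1.48) and had a mean of 8.52 in SKR6CA. GPX2 fell by 0.87, AKR1C2 by 0.76, GCLM, the regulator of glutathione synthesis, by 0.67 and AKR1C1 by 0.64. The AKR1C genes are close paralogues whose probes may share transcripts, and the other probe sets of AKR1C1 read -0.26 to 0.07. Of 21 genes of the aryl hydrocarbon receptor and drug metabolism 4 rose (19.0%) and 3 fell (14.3%). CYP1A1 rose from 9.63, 9.60 and 9.68 to 10.03, 10.08 and 10.05 (0.42) and its mean was 6.04 in SKR6CA. CYP1A2 rose by 0.80 and GSTT1 by 0.44, and UGT8, CYP4X1 and UGT2B28 fell by 1.10, 0.89 and 0.35.

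The NF-kB pathway, which the second transduced line activates, had few called genes in the vector line. Of 15 subunits and regulators NFKBIZ rose (6.67%) and 0 were lower in limma at an unadjusted p under 0.05. Above the median level, where 14 of the 15 lie, 19.2% of genes were higher and 23.0% lower. NFKBIZ went from 7.97, 7.97 and 7.93 to 9.90, 9.85 and 9.95 (1.94, adjusted p = 1.2e-05). This nuclear member of the IkB family had a mean of 9.98 in SKR6CA, 0.08 above SKR6-Vector (adjusted p above 0.05). RELA read 9.22, 9.07 and 9.20 and then 9.42, 9.37 and 9.41 (0.23, adjusted p = 0.092). NFKBIA, the feedback inhibitor that NF-kB itself induces, differed by -0.17 (adjusted p = 0.55), and RELB by 0.11. Among 35 effector targets 2 rose (5.71%) and 1 fell (2.86%), against 12.2% and 13.4% of all genes. The rises were those of LCN2 and of VCAM1 (0.37), and MMP9 fell by 0.25. The call of MMP9 was lost whichever of the 6 arrays was left out and that of VCAM1 for 4 of them. Of 43 cytokine and growth factor genes 7 rose (16.3%) and ANGPTL4 fell (2.33%), by 0.72, beside the same shares of all genes (12.2% and 13.4%). TNFSF15 rose from 6.52, 6.71 and 6.60 to 8.12, 8.12 and 8.11 (1.51), IL15 by 1.11, KITLG by 0.66 and VEGFC by 0.55.

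Apoptosis is set by opposing families of proteins. Of 23 pro-apoptotic genes 6 rose (26.1%) and 5 fell (21.7%). Of the 23, 19 lie above the median level, where 19.2% of genes were higher and 23.0% lower. BMF, a BH3-only protein, rose from 6.79, 6.88 and 6.88 to 8.03, 8.19 and 8.21 (1.30), whereas PMAIP1, the BH3-only protein NOXA, fell by 1.02, from 6.71, 6.91 and 6.45 to 5.58, 5.63 and 5.81. CASP8 and BOK rose by 0.67 and 0.70, but each has a probe set that did not, at -0.10 and -0.12. Of 14 anti-apoptotic genes GADD45B and MCL1 rose (14.3%), by 0.68 and 0.34, and none fell in limma (1 at an unadjusted p under 0.05). Above the median level, where 12 of the 14 lie, 19.2% of genes were higher and 23.0% lower. BIRC5, a survival and mitosis gene, differed by -0.40 (adjusted p = 0.11). In the list of lysosomal and autophagy genes, with 30 measured, 8 were higher (26.7%) and 2 lower (6.67%), against 19.2% and 23.0% of genes above the median level, where all 30 lie. Without SKR6 replicate 2, 5 were higher. MITF, a factor that activates lysosomal genes, rose from 7.26, 7.24 and 7.20 to 8.79, 8.99 and 9.01 (1.70) and was 1.62 lower in SKR6CA. Its relative TFEB rose by 0.69, GABARAPL1 by 0.92, MAP1LC3B by 0.33 and CTSD by 0.42. CTSZ fell by 0.82, with -0.04 on its other probe set.

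Among 14 stem and progenitor genes 5 rose (35.7%) and 2 fell (14.3%), against 12.2% and 13.4% of all genes. ALDH1A1, the retinaldehyde dehydrogenase used as a stem cell marker, rose from 5.00, 5.03 and 4.82 to 7.51, 7.75 and 7.59 (2.66) and was at 4.33 in SKR6CA. SOX9 rose by 1.48, from 7.85, 7.89 and 7.90 to 9.35, 9.31 and 9.44, and ALDH1A3 by 1.34, with -0.07 on its other probe set. CD24 rose by 0.52, and CD44, the hyaluronan receptor, and PROM1 fell by 0.85 and 0.83. Among 28 HOX genes 2 rose and 2 fell (7.14% each), and among 20 cancer-testis genes 1 rose (5.00%) and 2 fell (10.0%). HOXC13 rose by 1.20, HOXC11 by 0.45, and HOXC10 and HOXC9 fell by 0.60 and 0.46. CTAG2 fell by 0.40, MAGEC1 by 0.25, and GAGE1 rose by 0.23. CDH5, the cadherin of endothelial junctions, was the only one of 5 endothelial markers called: it rose from 5.26, 4.91 and 5.26 to 8.09, 8.06 and 8.17 (2.96) and had a mean of 8.22 in SKR6CA. PECAM1 read 6.10 to 6.24 and 5.94 to 6.28, and KDR 3.84 to 3.88 and 3.67 to 4.08. MAP2, a microtubule protein of neurons, rose by 2.02, with 0.09 on its other probe set, and the neural markers GFAP, RBFOX3 and SYP were not called.

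**Figure D4:**
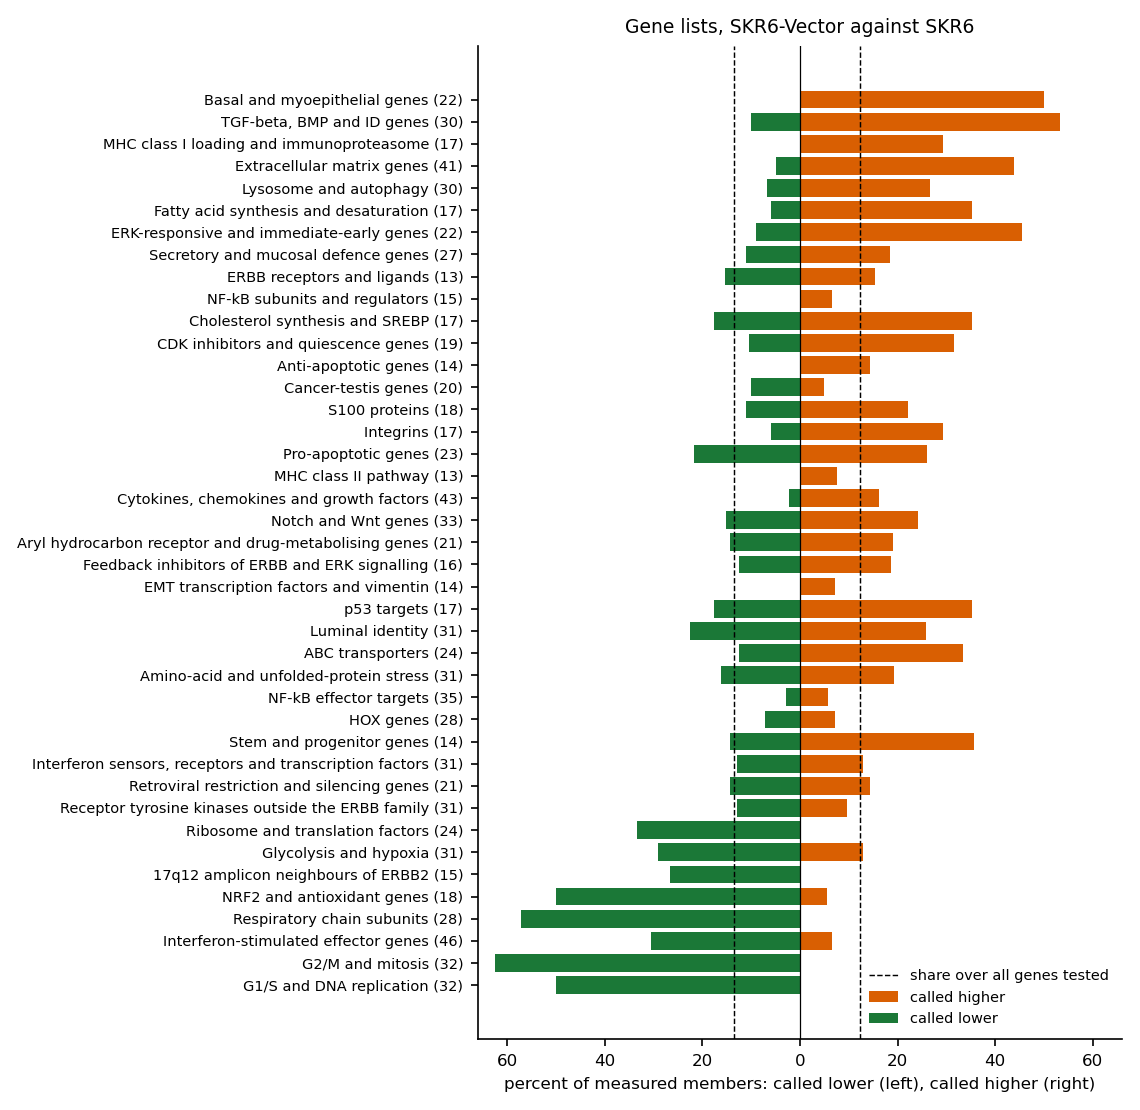
Share of the measured members of each gene list called higher (orange, right) or lower (green, left) in SKR6-Vector against SKR6, in percent, ordered by median difference with the number measured in brackets; dashed lines give the shares over all genes, 12.2% higher and 13.4% lower. The basal, TGF-beta, MHC class I and matrix lists lie at the top with 29.4% to 53.3% higher. Both cell division lists, the interferon-stimulated genes and the respiratory chain lie at the bottom with 30.4% to 62.5% lower. For genes above the median level, which make up most of many lists, the shares are 19.2% higher and 23.0% lower (not drawn).

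In places, genes that neighbour each other on a chromosome shifted in the same direction. The 9875 genes with a level above the median and a place in RefSeq were put in chromosome order, and the median difference was taken over every run of 25 neighbours. Over 9323 such windows the middle value was -0.02, with 1% below -0.35 and 1% above 0.21. Of the 9875 genes themselves, 23.0% were called lower and 19.2% higher. The 6 most extreme windows that do not overlap all lay below 0. On chromosome 1 these were MAP3K6 to SNRNP40 (median -0.47, 16 of 25 called lower and none higher) and LSM10 to SMAP2 (-0.39, 16 lower and none higher). On chromosome 2 they were POLE4 to REEP1 (-0.42, 16 lower and none higher), PROM2 to MITD1 (-0.37, 17 lower, 1 higher) and SNORD89 to CHCHD5 (-0.45, 19 lower, 1 higher). The first 25 placed genes of chromosome 5, CCDC127 to CCT5, had a median of -0.42 with 18 lower and none higher. In the 4 windows with none higher, limma gave 0 or, in POLE4 to REEP1, 1 higher at an unadjusted p under 0.05. With 15 genes per window the 6 most extreme were of both signs. They included windows on chromosome 4 (0.56, 9 called higher and 3 lower) and chromosome 11 (0.45, 9 higher and 0 lower). The others lay below 0, on chromosomes 1, 2 and 9.

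In each of these windows, which were picked for their extreme medians, 21 to 24 of the 25 genes lay below 0. In the chromosome 5 window the transcription factor IRX2 fell by 1.02, the checkpoint gene TRIP13 by 0.78, the methionine synthase reductase MTRR by 0.73, CEP72 by 0.60 and the chaperonin subunit CCT5 by 0.57. TRIP13 read 11.14, 11.16 and 11.15 in SKR6 and 10.37, 10.39 and 10.34 in SKR6-Vector, and MTRR 11.65, 11.65 and 11.63 and then 10.96, 10.83 and 10.94. In the POLE4 to REEP1 window the actin-capping protein CAPG fell by 1.27, the mitochondrial ribosomal protein MRPL35 by 0.87 and the carboxylase GGCX by 0.77. In the SNORD89 to CHCHD5 window SOWAHC fell by 1.15, CCDC138 by 0.86, MTLN by 0.76 and BUB1 by 0.75, while FHL2, a LIM-domain cofactor, rose from 6.63, 6.61 and 6.58 to 8.91, 8.91 and 8.97 (2.33). The PROM2 to MITD1 window held falls of ANKRD39 (-0.84), NCAPH (-0.83) and SEMA4C (-0.76) and a rise of NEURL3 (1.18). The chromosome 1 windows held falls of IFI6, FAM76A (-0.75) and PTAFR (-0.65), and of SF3A3 (-0.84), YRDC (-0.82) and UTP11 (-0.68). Genes named above as parts of a pathway also lie here: IFI6 in a chromosome 1 window, SDHA in the chromosome 5 window, and COX5B and BUB1 in chromosome 2 windows.

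The 3 chromosome 2 windows belong to 1 long stretch. From POLE4 to GPR39, boundaries read from the data after the profile was seen, 135 consecutive window medians lay below -0.15. Of the 135 genes at the window centres, 116 were below 0, 81 were called lower (60.0%) and 7 higher. Over all genes placed in windows 23.0% were called lower and 19.2% higher, and over those of chromosome 2 28.55% and 18.52%. The median deviation of the 135 genes from the SKR6 mean was -0.33, -0.31 and -0.29 on the SKR6-Vector arrays, -0.01, -0.00 and 0.01 on the SKR6 arrays and -0.04, -0.04 and -0.03 on the SKR6CA arrays. This stretch and those below were picked for low SKR6-Vector minus SKR6 values, so the low values and counts of SKR6-Vector follow from the choice. Neighbouring windows also share most of their genes. SKR6CA was not used in the choice, so a weaker shift there is partly built in. Window medians of SKR6CA minus SKR6 ranged from -0.15 to 0.02 over the same stretch, with 36 of the 135 below -0.1. Stretches were searched on chromosomes 1, 2 and 5 only, and for low windows only, so they say nothing of the other chromosomes or of high stretches. On chromosome 1 there were 5 such stretches of at least 25 windows: ACAP3 to ZBTB48 (48 windows), RERE to ELOA-AS1 (103), MAN1C1 to RNF19B (79), TRIM62 to CYP4B1 (108) and BTF3L4 to MGC34796 (32). The MAP3K6 to SNRNP40 window, the lowest of all, is in the MAN1C1 to RNF19B stretch. The 108 genes of the longest, TRIM62 to CYP4B1, had medians of -0.28, -0.27 and -0.25 in SKR6-Vector and -0.10, -0.12 and -0.12 in SKR6CA. The stretch of 38 genes at the start of chromosome 5, PDCD6P1 to PRLR, had -0.36, -0.34 and -0.30 in SKR6-Vector and -0.14, -0.09 and -0.11 in SKR6CA. RNA arrays do not measure DNA copies, and whether copy number moved with these stretches was not tested.

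**Figure D5:**
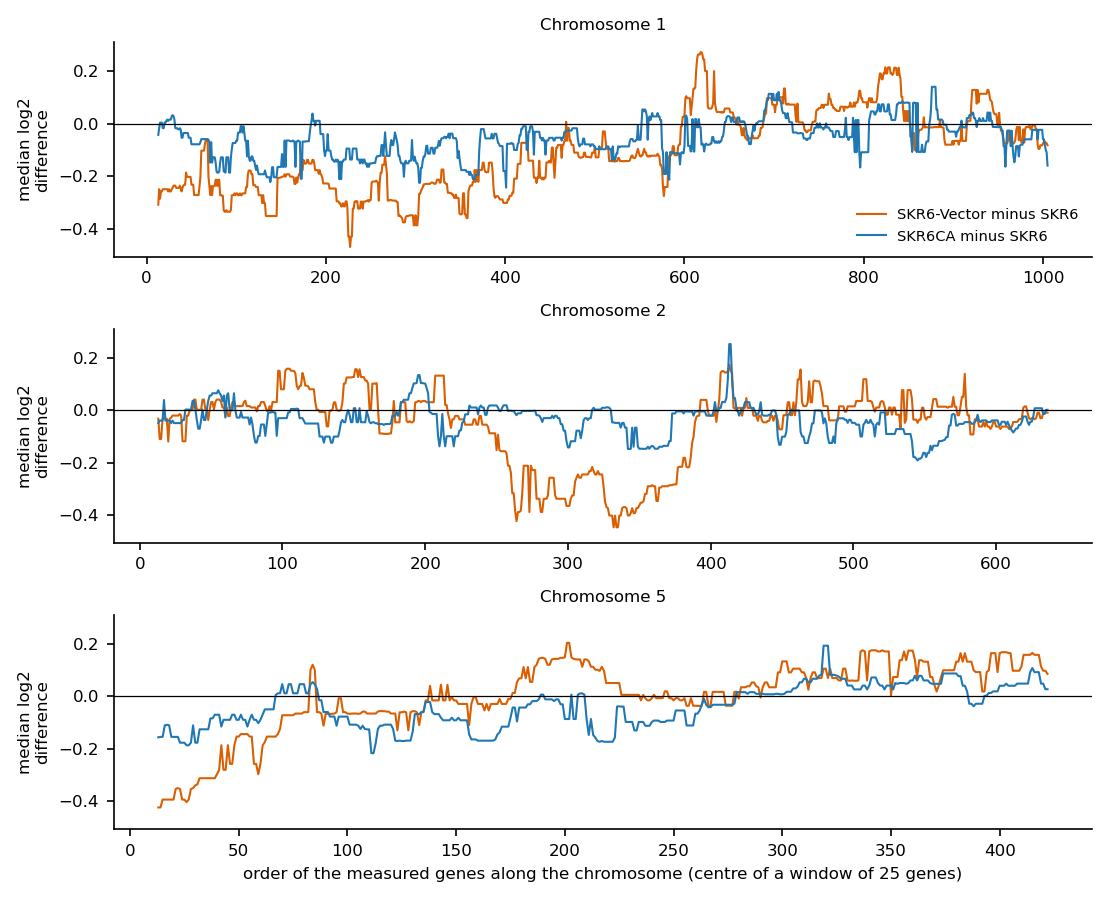
Median log2 difference over 25 neighbouring genes (y axis) against the order of the measured genes along chromosomes 1, 2 and 5 (x axis), for SKR6-Vector minus SKR6 (orange) and SKR6CA minus SKR6 (blue), which share the SKR6 arrays. On chromosome 2 the orange line drops to between -0.45 and -0.15 over a block of neighbouring genes, picked for that drop. There the blue line runs above it, between -0.15 and 0.02.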

How the data were processed

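The files hold log2 expression values that the authors deposited, made with RMA from biotin-labelled RNA on 3' arrays of 54675 probe sets; RMA and limma are named in the submitters' processing notes; no version or parameter was given in the sources used here. RMA normalises over all 12 arrays and gives no detection call, so levels are relative and low values are compressed. The number of arrays limits the precision.

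Of 54675 probe sets, 41097 had 1 gene in the 2016 platform annotation, 1801 had several and 11777 were unnamed. Gene IDs of 41043 matched RefSeq (GRCh38.p14), from which names and gene order were taken, and 54 kept the older symbol. Genes on probe sets of several genes only were not tested. Other probe sets of a gene are given for some named genes only, so silence on them does not mean that they agreed.

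The test was limma (3.58.1, R 4.3.3; lmFit and eBayes) on 1 model of 4 line means over 12 arrays, with Benjamini-Hochberg adjustment over 19775 genes and no filter. The spread is pooled over the lines. The SKR6LR replicates varied more (mean SD 0.21, against 0.10 in SKR6 and SKR6-Vector), which widens the SEs. On simulated data the fit recovered 72.8% of changes of 0.5, 96.1% of 1 and 99.4% of 2, and 4.07% of its calls were false. The simulation changed 200 of 19775 genes and used normal noise with 1 spread per gene for all lines. The real data have more called genes and unequal spread, so these figures do not give the false share of the calls here.

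The comparison, the gene lists and the rule for named genes were chosen with earlier results of these data known. The rule names the 15 largest called rises and falls without overlap, up to 6 called members per list, members of lists of up to 16, ERBB2, EGFR, ERBB3 and RELA, and up to 4 called members of the extreme windows with their first and last gene. Of 1139 list entries 1036 were measured. Alternatives covered the normalisation, filter, probe set, model, replicates and window size.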

Additional observations from a re-analysis of the deposited data

How the results depend on the processing

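Other settings kept 66.8% to 100% of the 5073 calls in the same direction. Of the 270 called genes named in the text, 231 to 270 kept their call where all of them were tested, and none changed direction except under the choice of probe set. Leaving out 1 of the 6 arrays gave 1989 to 2022 genes higher and 1976 to 2087 lower, with 369 to 375 and 144 to 157 past a change of 1, and 245 to 248 of the named calls remained. Calls lost whichever of the 6 arrays was left out were those of CTSD, EIF4E, ITGB5, KITLG, MMP9, PHLDA1, RPS27L, SAMHD1, STARD3 and TASOR. Calls lost without some of them were those of BTF3L4, EGLN3, GABARAPL1, GAGE1, GSTT1, HOXC9, HOXC11, IFIT1, IFNAR2, IRF2, IRF9, MAGEC1, MIEN1, NCL, PSME1, RNF19B, SETDB1, SPRY2, SPRY4, TAP1, TAPBP, TRIM22, UGT2B28 and VCAM1. Where a list had 1 or 2 calls in a direction, leaving out 1 array moved that count by at most 1. Testing every probe set in place of 1 per gene gave 4523 higher and 4884 lower, of which 701 and 273 were past a change of 1. Array weights gave 4078 lower, and an adjusted p under 0.01 gave 1674 lower. Without probe sets of the types that can match several transcripts (_x_at and _s_at), 9 named genes changed sign: AKR1C1 (0.065), BOK (-0.12), CASP8 (-0.10), FGFR2 (-0.20), GDF15 (-0.068), ITGB4 (-0.10), ITGB5 (-0.12), SC5D (-0.073) and TASOR (-0.071). These values come from a different probe set of the same gene.

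The labels do not say whether replicate numbers pair the cultures. Deviations of same-numbered SKR6 and SKR6-Vector arrays correlated at 0.03, 0.02 and 0.02 across genes, and those of differently numbered arrays at -0.014 to -0.002. Any effect shared by number was thus small, and the check cannot exclude pairing. With a replicate block 2334 genes were higher and 2491 lower, and 266 of the 270 named calls remained. Cyclic loess put 55.0% of the calls on the higher side and median centring 42.3%, against 47.7% in the values reported. Windows of 15 genes ranged from -0.60 to 0.56 and windows of 51 from -0.37 to 0.25, against -0.47 to 0.30 for 25. Low-level genes limit what can be seen, since RMA gives no detection call.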
